A study of Mus musculus with 20 samples.

Results

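The 41 genes described here encode the machinery of DNA replication and S phase. They were taken from a list of named genes, all 41 were found among the 34162 genes to which the transcript estimates of each library could be summed, and all 41 were tested in both batches that the labels name. RNA of N2A cells, a mouse neuroblastoma line that divides in culture, was sequenced in bulk 1 h after scanning with a pulsed near-infrared laser, and the question was whether the exposure changed gene expression. Bulk RNA-seq averages over all cells, so that fewer cells in S phase and less RNA per cell cannot be told apart.

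The 20 libraries fell into 7 groups. Batch 1 held 3 libraries each of the unexposed negative control (NC), of I0-E0 (20 mW, 2 µs per pixel, 10 J/cm2), of I0-E2 (20 mW, 10 µs, 48 J/cm2), of I0-E4 (20 mW, 20 µs, 95 J/cm2) and of I2-E2 (100 mW, 2 µs, 48 J/cm2), where the energy per area is called fluency. Batch 2 held 2 NC libraries and 3 libraries of I3-E3-SRS (65 mW, 2 µs, 79 J/cm2). In that setting 2 lasers were combined for stimulated Raman scattering, and it was chosen near the burning of the cells. The settings of batch 1 used a single laser. In the paper I3-E3-SRS has a higher average intensity (power per area of the beam) than any of them, through an objective of higher magnification. Whole culture wells were scanned, and by the methods 3 wells of unexposed cells were lysed at the same time. Neither the labels nor the methods state which library came from which well, or whether the cultures were separate. The p-values therefore measure the spread between these libraries, which may be technical.

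Before a cell can copy its genome, the origin recognition complex with CDC6 and CDT1 loads the hexameric MCM2-7 helicase onto DNA in G1, and geminin blocks CDT1 afterwards so that no origin is loaded again. In S phase CDC45 and the GINS complex activate the helicase, primase and DNA polymerase alpha start each strand, the RFC complex loads the PCNA sliding clamp, and polymerases delta and epsilon extend the strands. Transcription of many of these genes rises at the G1/S boundary under E2F factors. The retinoblastoma family holds these factors back until cyclin kinases, that of cyclin E among them, act.

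The promoters of the genes are shown first because they hold a feature that the list did not use. RefSeq windows of 300 bases (250 before and 50 from the annotated start, build GRCm38.p6) matched 32 of the 41 genes, with 37 windows in all. The words TTTCCCGC, TTTGGCGC, TTTCGCGC and TTTGCCGC, forms of the E2F site, were searched on both strands and overlapping matches were counted. They were found in 13 of the 37 windows (35.1%), which belong to 13 genes, against 2.26% of all 32851 windows. The 13 genes were Mcm3, Mcm5, Mcm6, Mcm7, Orc1, Cdc6, Cdt1, Gins3, Rfc3, Pola1, Pold1, Lig1 and Uhrf1. CCAAT occurred in 59.5% of the windows against 37.4% of all, GGGCGG in 73.0% against 35.7%, and TTTGAA, a form of the cell cycle homology region of genes expressed in G2, in 10.8% against 17.9%. A match describes letters and does not show binding. Only these exact words were counted, so a window without a match may hold other forms of the site.

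Stretches upstream of the RefSeq start site of 5 genes with a match are shown, together with that of Prim1, which had none of the words. GENCODE, the source of the gene coordinates given below, places some starts elsewhere. By its coordinates the Gins3 and Cdc6 stretches and the end of the Prim1 stretch lie inside the gene. Each stretch reads 5′ to 3′ on the strand of its gene, capitals mark the E2F words, and the base just before the RefSeq start site is -1. The Mcm5 stretch (chr8:75109259-75109508, plus strand) runs from -250 to -1 and holds a pair of overlapping words at -153 and -149. The Mcm6 stretch (chr1:128359726-128359845, minus strand) holds overlapping words at -110 and -106 and another at -47. The others are Cdc6 (chr11:98907981-98908070, plus strand, word at -138), Gins3 (chr8:95633469-95633558, plus strand, word at -41), Pola1 (chrX:93632246-93632335, minus strand, word at -138) and Prim1 (chr10:128014965-128015214, plus strand, from -250 to -1).
Mcm5: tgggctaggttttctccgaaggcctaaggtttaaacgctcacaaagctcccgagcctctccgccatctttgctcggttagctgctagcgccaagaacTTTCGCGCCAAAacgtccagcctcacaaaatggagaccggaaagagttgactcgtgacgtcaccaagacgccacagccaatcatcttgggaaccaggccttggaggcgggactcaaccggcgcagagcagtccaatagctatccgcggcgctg
Mcm6: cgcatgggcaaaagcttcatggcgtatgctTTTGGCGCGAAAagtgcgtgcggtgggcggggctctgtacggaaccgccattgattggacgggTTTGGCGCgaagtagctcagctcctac
Cdc6: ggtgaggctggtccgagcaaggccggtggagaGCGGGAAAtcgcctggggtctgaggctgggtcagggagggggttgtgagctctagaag
Gins3: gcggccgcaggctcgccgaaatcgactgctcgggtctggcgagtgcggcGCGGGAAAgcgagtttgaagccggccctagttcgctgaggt
Pola1: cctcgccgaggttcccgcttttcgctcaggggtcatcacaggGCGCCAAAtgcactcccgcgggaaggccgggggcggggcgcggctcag
Prim1: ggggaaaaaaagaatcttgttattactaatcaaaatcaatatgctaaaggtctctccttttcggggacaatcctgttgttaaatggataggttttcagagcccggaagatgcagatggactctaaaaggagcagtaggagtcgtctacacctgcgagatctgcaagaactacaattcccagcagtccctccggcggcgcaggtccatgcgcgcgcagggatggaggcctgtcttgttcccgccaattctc

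In unexposed cells the genes were expressed at high levels. In TPM, a level scaled by transcript length and library size so that genes can be compared, the median of the 41 genes was 90.6 in the NC libraries of batch 1, against 5.32 over the 19588 genes with any TPM there, and the median gene of the list lay at the 90.0th percentile of those genes. Pcna, the sliding clamp, was highest at 401 ± 17.9 TPM (SD, n = 3), followed by Mcm7 at 255.9 ± 16.3 TPM and Rrm1, the large subunit of ribonucleotide reductase, at 218 ± 10.5 TPM. The lowest were Gins3 at 7.09 ± 0.059 TPM and Orc1, the largest ORC subunit, at 8.37 ± 1.48 TPM, a difference within 1 SD of Orc1.

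Among the helicase subunits, Mcm7 was highest and Mcm4 lowest at 86.6 ± 3.03 TPM, while Mcm6, Mcm5, Mcm3 and Mcm2 lay between 142 and 165 TPM. Of the licensing and initiation genes, Cdt1, the helicase loader, was highest at 164 ± 4.93 TPM, with Orc6, Gmnn (geminin), Mcm10 (an initiation factor) and Cdc6 between it and Orc1. Of the helicase activators, Gins4 was highest at 91.8 ± 2.52 TPM, Gins2 lay at 90.6 ± 4.70 TPM, Gins1 lay at 63.3 TPM and Cdc45 at 52.1 TPM. The lowest of the clamp loader genes was Rfc4 at 37.9 ± 1.22 TPM and the highest was Rfc2 at 124 ± 13.8 TPM, an order that does not hold for coding transcripts (given after the levels). Among primase and polymerases, the catalytic primase subunit Prim1 was highest at 125 ± 3.24 TPM and its partner Prim2 lay at 31.4 ± 1.31 TPM, near Pola2 at 30.7 ± 2.90 TPM. The catalytic subunits of polymerases delta (Pold1), epsilon (Pole) and alpha (Pola1) had 67.5, 42.6 and 23.2 TPM.

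For the joining of Okazaki fragments and the coating of single strands, Lig1 (DNA ligase) was highest at 119 ± 8.44 TPM. Fen1, the flap nuclease, was lowest at 75.9 ± 1.71 TPM, with the RPA subunits Rpa1 and Rpa2 between them. The order of Fen1 and Rpa1 does not hold for coding transcripts (given after the levels). In nucleotide supply, Tyms (thymidylate synthase), Rrm2 (the small reductase subunit) and Tk1 (thymidine kinase) lay at 148, 147 and 133 TPM. Uhrf1, which helps to copy DNA methylation, reached 139 ± 2.81 TPM, and the G1/S regulators E2f1, Ccne1 and Ccne2 (cyclins E) 57.9, 54.1 and 53.8 TPM, within 1 SD of each other for the cyclins.

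Counting protein-coding transcripts alone, an alternative chosen after seeing the data, moved 2 genes far down. Rfc2 had 7.90 ± 0.091 TPM on its coding transcript, 6.40% of its total. It was then the lowest of the clamp loader genes, below Rfc4 at 37.1 ± 2.32 TPM. Rfc3 was the highest of them at 70.4 ± 3.34 TPM, within 1 SD of Rfc1 at 68.5 ± 2.46 TPM. Tyms had 36.5 ± 5.86 coding TPM, 24.7% of its total, against 143.5 TPM for Rrm2 and 104.7 TPM for Tk1. Gins2 lay below Gins4, with 58.6 ± 7.14 against 91.8 ± 2.52 coding TPM. Rpa1, with 68.5% of its total on coding transcripts, lay below Fen1, at 57.6 ± 1.32 against 75.9 ± 1.71 coding TPM. Pcna, Mcm7 and Rrm1 were again the 3 highest, at 385, 216 and 159.7 coding TPM, and Gins3 the lowest.

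**Figure D1:**
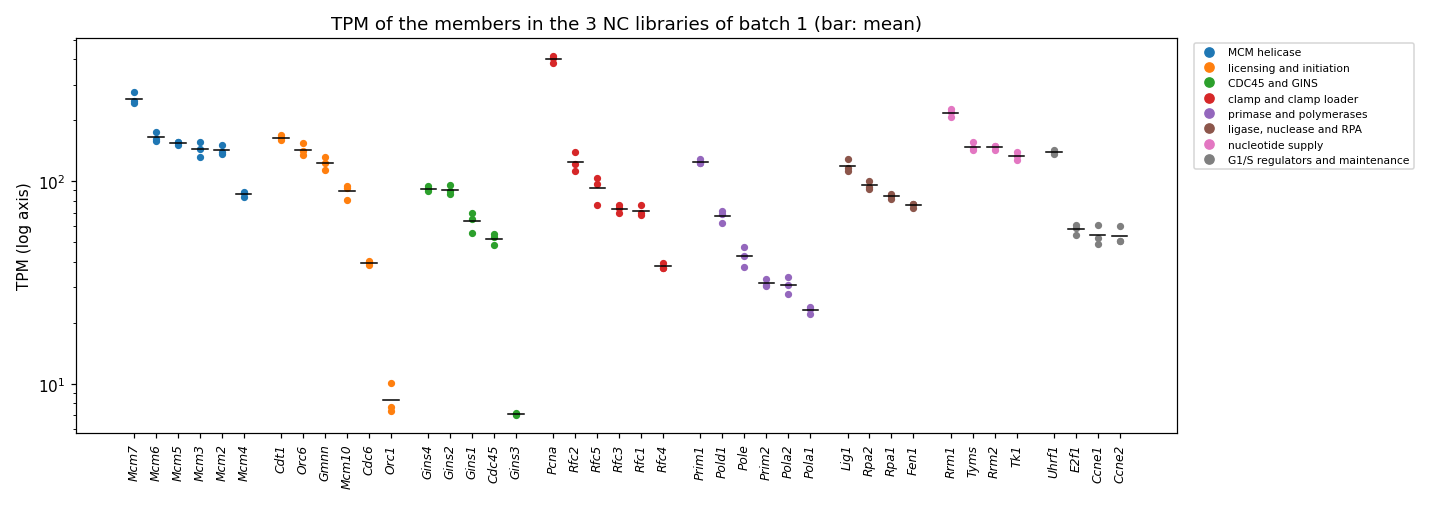
TPM (log axis) of each of the 41 genes in the 3 NC libraries of batch 1, by role and ordered by level within a role; points are libraries and bars their mean. Means run from 7.09 for Gins3 to 401 for Pcna, and within the MCM helicase from 86.6 to 255.9.

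For 20 of the 41 genes over 90% of the estimated counts lay on 1 transcript, and the main transcript was protein coding for 40. The exception was Rfc2, whose most abundant transcript, Rfc2-204, is a retained intron with a mean of 38.2% of its counts, beside 31.5% on its coding transcript. Reads can be shared with other genes: 18 genes had under 95% of their 31-base words to themselves, and 5 had under 80%. Fen1 had 20.4% (partner Gm10143), Gins2 33.8% (Gse1, which overlaps it on the opposite strand), Mcm7 66.6% (Gm5487), Uhrf1 75.7% (Gm5648) and Pcna 76.7% (Pcna-ps2). Pcna-ps2 and Gm5648 reached at most 5 and 2 counts in a library, Gse1 had 1630 to 3708 counts beside 779 to 1439 of Gins2, and Gm5487 and Gm10143 have no row in the tables. Whether the counting used strand is not stated, and the values of these 5 genes are uncertain.

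Depth and identity of the libraries were as follows. Totals ranged from 5473588 to 12698770 counts. The N2A markers Hand2, Chga and Tubb3 had a median of 309.7, 242 and 668 TPM in batch 1, the neurofilament genes Nefl and Nefm were at or near 0, and the defining markers of fibroblasts (Col1a1), macrophages (Csf1r) and epithelium (Epcam) had medians of 0.099, 0 and 0 TPM there. Of the 5 macrophage markers only Csf1r, at most 0.936 TPM, could be tested in batch 2, where it was lower in I3-E3-SRS without passing the threshold (-1.10 ± 0.38 SE, adjusted p = 1.00 in edgeR). Replicate 1 of NC in batch 2 stood apart: it had the lowest total, and 13.4% of its TPM lay on transcripts shorter than 200 bases, against 0.179% to 0.309% in the other 19 libraries. Of the 41 genes, 36 had a lower TPM in it than in all 4 other libraries of batch 2, and 2 a higher TPM. In CPM (counts scaled by library size but not by length) 5 were lower than in all 4 and 12 were higher. TPM levels are therefore given from batch 1. Without replicate 1 of NC in batch 2, which was tried for every gene after seeing the data, 24 of the 41 genes were above NC in I3-E3-SRS and 17 below. In that fit 7 changed sign (Mcm4, Mcm7, Mcm10, Gins2, Rfc4, Pola1 and Rpa2). Replicate 3 of I0-E0 had reads in 19957 genes, against 15988 to 17181 in the other libraries of batch 1, and without it the median log2 fold change of the 41 genes in I0-E0 was 0.029 in place of 0.023 (0.0106 to 0.029 over all alternatives).

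No replication gene passed the threshold in any comparison of exposed with unexposed cells. With edgeR's quasi-likelihood test and Benjamini-Hochberg adjustment over all genes, 0 of 41 had an adjusted p under 0.05 in each of the 5 exposure settings against NC, in the 12 exposed libraries of batch 1 pooled against NC, in I2-E2 against I0-E2, in the trend on fluency, and in the F test over the 5 groups of batch 1. The share of all genes called was 0% in each of them (12302 genes tested in batch 1 and 12057 in batch 2). DESeq2, limma-voom and limma-trend called 0 of the 41 in the comparisons that they were run on, all of these but the F test. Nearly all the 95% confidence intervals lay within a 1.5-fold change in either direction: this held for 41 of 41 genes in I0-E0, I0-E2 and I0-E4 and for 40 of 41 in I2-E2, where the upper bound of Gins3 reached 0.61 on the log2 scale, and in I3-E3-SRS, where the lower bound of Gins2 reached -0.63. The 4 settings of batch 1 were compared with the same 3 NC libraries, so their values are given side by side and not as separate evidence.

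**Figure D2:**
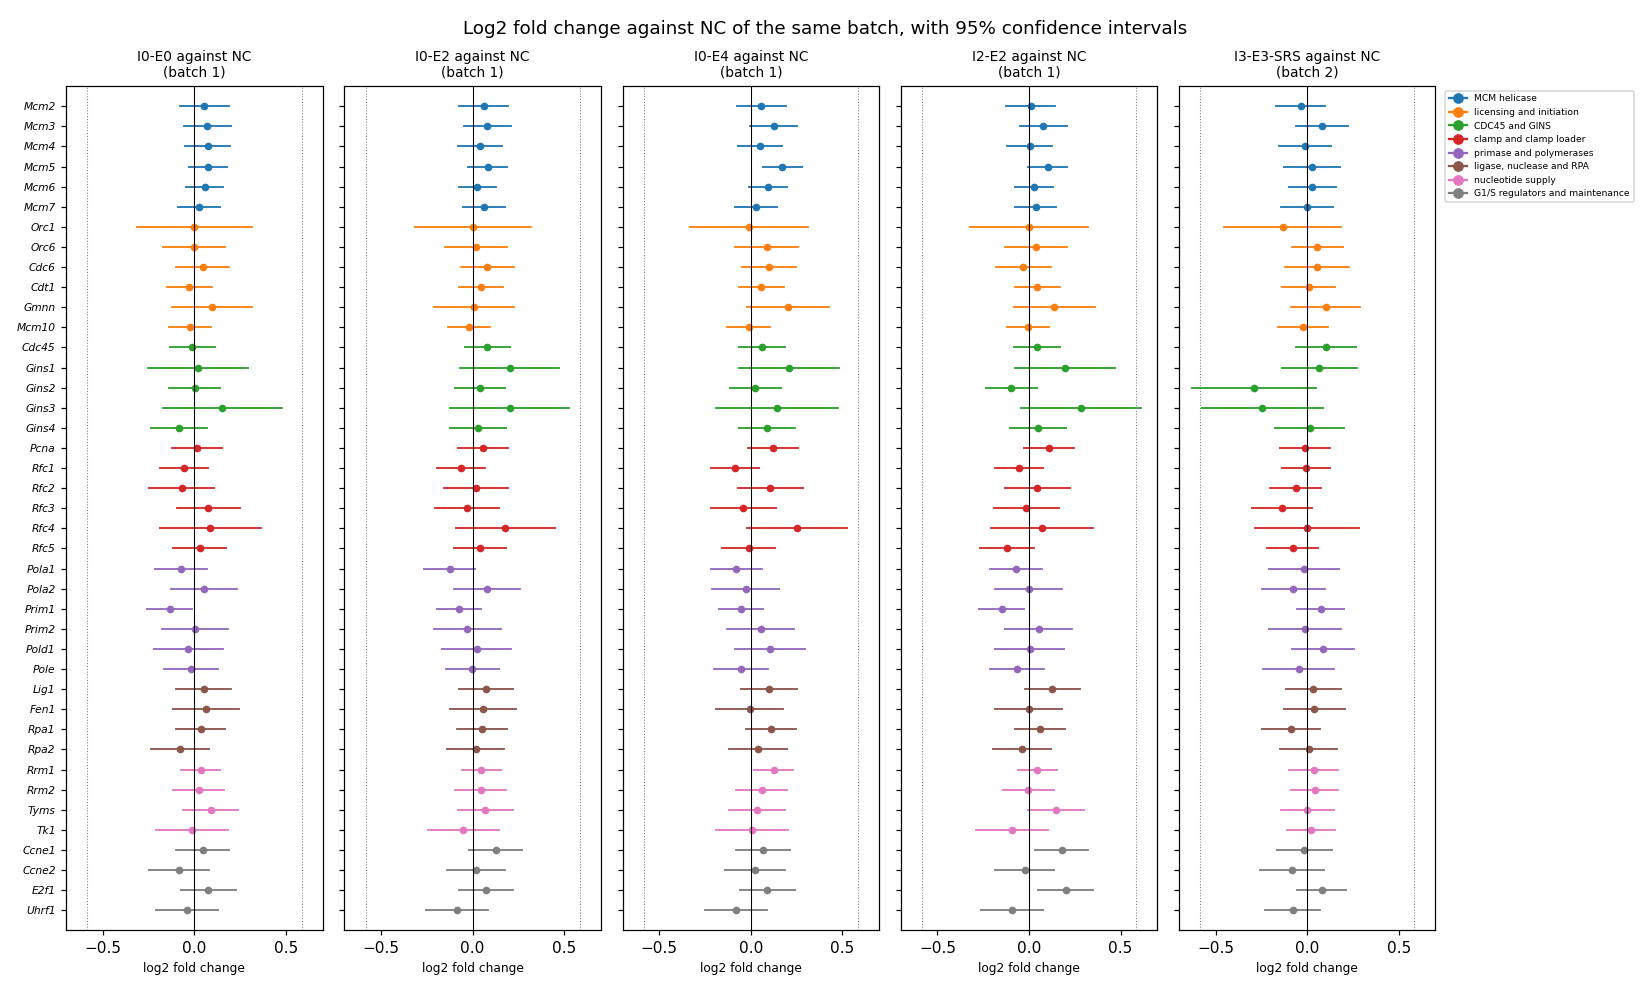
Log2 fold change (horizontal axis) of the 41 genes (rows, coloured by role) in the 5 exposures against NC of the same batch; points are estimates of edgeR, lines 95% confidence intervals and dotted lines a 1.5-fold change. The estimates lie between -0.29 and 0.29, the widest intervals are those of the low-level genes Orc1 and Gins3, of Gins1 and Rfc4, and, in I3-E3-SRS, of Gins2.

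The median log2 fold change of the 41 genes was 0.02 in I0-E0 and 0.03 in I2-E2, each with 25 genes higher and 16 lower. It was 0.04 in I0-E2 (32 higher, 9 lower) and 0.06 in I0-E4 (30 higher, 11 lower, and 0.046 without replicate 1 of I0-E4). Over all genes tested the median of the 4 settings lay between 0.0007 and 0.0040, and 50.2% to 51.4% of genes were higher. In I3-E3-SRS the median was -0.0017 (19 higher, 22 lower), beside -0.0040 over all genes, and the median was 0.0055 without replicate 1 of NC. By library, the median difference from the NC mean was -0.0128, 0.0188 and -0.0094 in the 3 NC libraries of batch 1, and it reached 0.11 in replicate 1 of I0-E4, while the other 2 libraries of I0-E4 had 0.036 and 0.015. The 3 libraries of I0-E2, at 0.030, 0.042 and 0.058, all lay above the 3 NC libraries, and those of I0-E0, I2-E2 and I0-E4 overlapped them. No test was made of these medians.

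**Figure D3:**
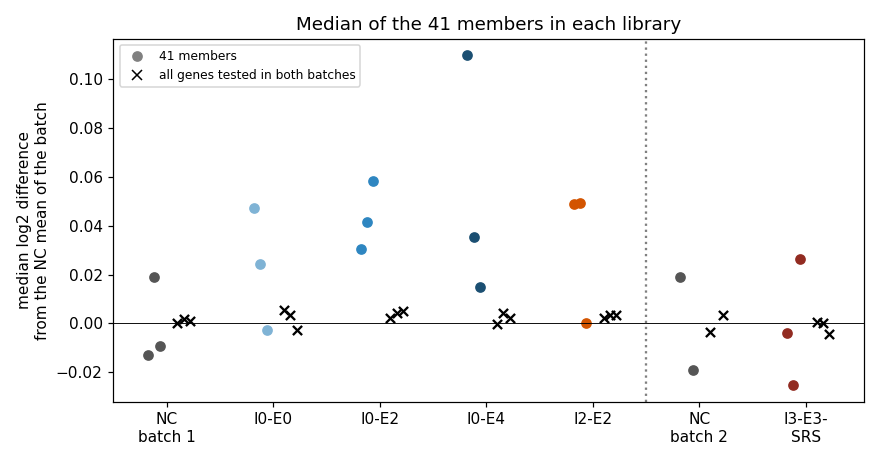
Median log2 difference of the 41 genes (circles) and of all genes tested in both batches (crosses) from the NC mean of the batch, for each of the 20 libraries. The circles of the exposed libraries of batch 1 run from -0.0027 to 0.11, those of NC from -0.0128 to 0.0188, and those of I3-E3-SRS from -0.0252 to 0.0265.

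The 6 helicase genes Mcm2 to Mcm7 were above NC in all 4 settings of batch 1, by a median of 0.03 in I2-E2 and of 0.06 to 0.07 in the settings at 20 mW, and no value passed the threshold. In I3-E3-SRS 3 were above and 3 below, and 5 were above without replicate 1 of NC. Mcm5 (chr8:75109569-75128439 in GRCm38) had the smallest p of the list. Its CPM was 242, 246 and 244 in NC, 266, 259 and 246 in I0-E0, 252, 259 and 264 in I0-E2, 281, 280 and 264 in I0-E4, and 265, 254.96 and 265 in I2-E2. All libraries of I0-E2, I0-E4 and I2-E2 were above all NC libraries, and 1 of I0-E0 lay within their range. The log2 fold change in I0-E4 was 0.17 ± 0.05 (SE, unadjusted p = 0.0032, adjusted p = 0.61 in edgeR). The edgeR F test over the 5 groups gave an adjusted p of 0.98 (unadjusted 0.047). In batch 2 Mcm5 had 288 and 261 CPM in NC and 286, 272 and 279 CPM in I3-E3-SRS, which lay between them. The log2 fold change there was 0.03, and 0.10 without replicate 1 of NC.

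Among the licensing genes the geminin gene Gmnn had the largest estimate. It had 55.4, 61.0 and 64.3 CPM in NC and 77.6, 73.0 and 58.1 CPM in I0-E4, so that 2 of the 3 exposed libraries were above the NC range and 1 within it (log2 fold change 0.20 ± 0.11 SE, adjusted p = 0.63 in edgeR). It was among the 2 highest genes in I0-E0 (0.10 ± 0.10 SE, and 0.02 without replicate 1 of I0-E0) and in I3-E3-SRS (0.10 ± 0.08 SE, and 0.07 without replicate 1 of NC). Orc1, Orc6, Cdc6, Cdt1 and Mcm10 had log2 fold changes between -0.03 and 0.10 in the 4 settings of batch 1 and between -0.13 and 0.06 in I3-E3-SRS (-0.09 to 0.07 without replicate 1 of NC).

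Of the helicase activators, Gins3 (chr8:95633453-95645060) and Gins1 had the largest estimates and wide intervals. Gins3 had 10.7, 10.9 and 10.8 CPM in NC, 13.8, 12.6 and 9.59 in I0-E0, 13.8, 11.6 and 11.9 in I0-E2, 12.4, 14.2 and 9.64 in I0-E4, and 13.2, 14.04 and 12.4 in I2-E2. The libraries of I0-E2 and I2-E2 were all above NC, whereas 1 library each of I0-E0 and I0-E4 was below. The log2 fold change in I2-E2 was 0.29 ± 0.16 (SE, adjusted p = 0.73 in edgeR). In batch 2 the direction was opposite, with 15.8 and 13.4 CPM in NC and 12.996, 12.1 and 11.8 CPM in I3-E3-SRS (-0.25 ± 0.14 SE, adjusted p = 1.00 in edgeR). Without replicate 1 of NC the value was -0.13. Gins1 was 0.20 ± 0.13 (SE) in I0-E2 and 0.21 ± 0.13 (SE) in I0-E4, with 30.4, 35.4 and 38.5 CPM in NC and 39.5, 40.5 and 39.6 CPM in I0-E2, all above NC. Cdc45 had its highest value in I3-E3-SRS, with 59.7, 56.5 and 55.8 CPM against 53.6 and 53.3 CPM in NC, which did not overlap (0.10 ± 0.07 SE, adjusted p = 1.00 in edgeR, and 0.10 without replicate 1 of NC), and Gins4 lay between -0.08 and 0.09 in all 5 settings.

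Gins2 (chr8:120578633-120589304) gave the lowest estimate in I3-E3-SRS, and it rested on 1 library. It had 146 and 99.5 CPM in the NC libraries of batch 2 and 104, 98.4 and 97.2 CPM in I3-E3-SRS. Replicate 1 of NC was high, and the other NC library lay within the exposed ones. The log2 fold change was -0.29 ± 0.14 (SE, adjusted p = 1.00 in edgeR). It was 0.0022 without replicate 1 of NC and -0.55 without replicate 2, where Gins2 passed the threshold as the only one of the 41 and 671 genes were called over all. In replicate 1 of NC, 25.8% of the Gins2 counts lay on its main coding transcript and 52.7% on the retained-intron transcript Gins2-203, against 80.7% to 98.2% and 0% to 11.3% in the other 19 libraries. Over the 41 genes together, 86.5% of the counts of that library lay on protein-coding transcripts, against 93.3% to 95.6% in the others. The part of this library's make-up in the Gins2 difference was not tested beyond leaving it out.

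**Figure D4:**
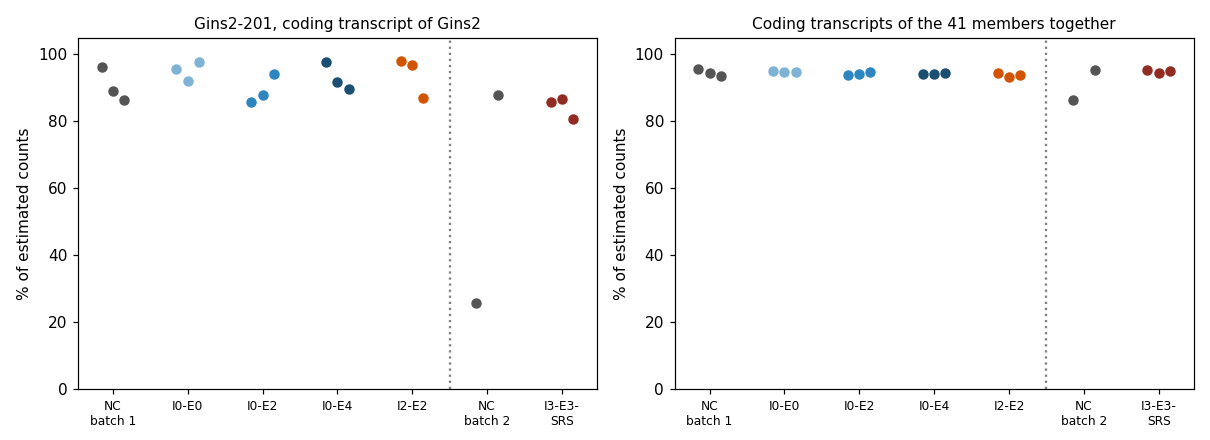
Share of the estimated counts (%) on the coding transcript of Gins2 (left) and on protein-coding transcripts of the 41 genes together (right) in each of the 20 libraries by group. Replicate 1 of NC in batch 2 lies at 25.8% and 86.5%, and the other 19 lie at 80.7% to 98.2% and 93.3% to 95.6%.

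The clamp and its loader gave mixed directions. Pcna lay between 0.01 and 0.12 on the log2 scale in batch 1 and at -0.01 in I3-E3-SRS. Rfc4, a small loader subunit, was the highest of the list in I0-E4 at 0.25 ± 0.13 (SE, adjusted p = 0.63 in edgeR), with 24.3, 23.5 and 26.9 CPM in NC and 33.7, 30.5 and 24.9 CPM in I0-E4, where 1 library lay within NC. Rfc1, the large subunit, was the lowest there (-0.09 ± 0.06 SE). Rfc5 was low in I2-E2 (-0.12 ± 0.07 SE) with 102, 98.3 and 104 CPM, against 104, 118 and 109 CPM in NC, where the highest exposed library passed the lowest NC library. All 6 genes, Rfc2 and Rfc3 included, were below NC in I3-E3-SRS, by 0.0017 to 0.14, and none passed the threshold. Without replicate 1 of NC 5 of the 6 were below, and Rfc4 was above at 0.06.

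Primase and polymerases held 2 genes above NC and 4 below in each of the 4 settings of batch 1 and in I3-E3-SRS, where it was 3 and 3 without replicate 1 of NC. Prim1 (chr10:128015168-128030037) was the lowest of the list in I0-E0 and I2-E2. It had 112, 120 and 117 CPM in NC, 107, 103 and 108 CPM in I0-E0, 107, 113 and 112 CPM in I0-E2, 104.9, 118 and 113 CPM in I0-E4, and 102, 103 and 109 CPM in I2-E2. The libraries of I0-E0 and I2-E2 were all below NC, and those of I0-E2 and I0-E4 overlapped it. The log2 fold change was -0.14 ± 0.06 (SE, unadjusted p = 0.030) in I0-E0 and -0.15 ± 0.06 (SE, unadjusted p = 0.019) in I2-E2, with adjusted p of 1.00 and 0.64 in edgeR. In I3-E3-SRS it lay above NC instead, at 0.07 ± 0.06 (SE, and 0.10 without replicate 1 of NC), with 113, 113 and 111 CPM against 109 and 104.6 CPM. Pola1 was the lowest gene in I0-E2 (-0.12 ± 0.07 SE), and Pola2, Prim2, Pold1 and Pole stayed between -0.08 and 0.10 in all 5 settings.

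Of the ligase, nuclease and RPA genes, Lig1 was above NC by 0.03 to 0.13 in the 5 settings, and Fen1, Rpa1 and Rpa2 lay between -0.09 and 0.11. Of nucleotide supply, Rrm1 (chr7:102441695-102469771) had 423, 439 and 406 CPM in NC and 464, 474 and 444 CPM in I0-E4. The groups did not overlap, and the log2 fold change was 0.12 ± 0.05 (SE, unadjusted p = 0.024, adjusted p = 0.61 in edgeR). Rrm2, Tyms and Tk1 lay between -0.09 and 0.15.

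Of the G1/S regulators, E2f1 and Ccne1 had their highest log2 fold changes in I2-E2, the setting of the highest power in batch 1. E2f1 (chr2:154559407-154569892), an activator of S phase genes, had 97.2, 90.6 and 102 CPM in NC and 116, 113 and 104.6 CPM in I2-E2, which did not overlap (0.20 ± 0.07 SE, unadjusted p = 0.012, adjusted p = 0.61 in edgeR). Ccne1 had 60.3, 66.2 and 54.9 CPM in NC and 69.4, 71.6 and 64.99 CPM in I2-E2, where the lowest exposed library lay below the highest NC library (0.18 ± 0.07 SE, unadjusted p = 0.020, adjusted p = 0.64 in edgeR). Ccne2 was near 0 in I2-E2 (-0.02 ± 0.08 SE) and among the lowest in I0-E0 (-0.08 ± 0.08 SE). Without replicate 1 of I0-E0 that value was 0.0004. Uhrf1 was below NC in all 5 settings, by 0.04 to 0.09. In I3-E3-SRS its value was -0.08, and -0.01 without replicate 1 of NC.

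**Figure D5:**
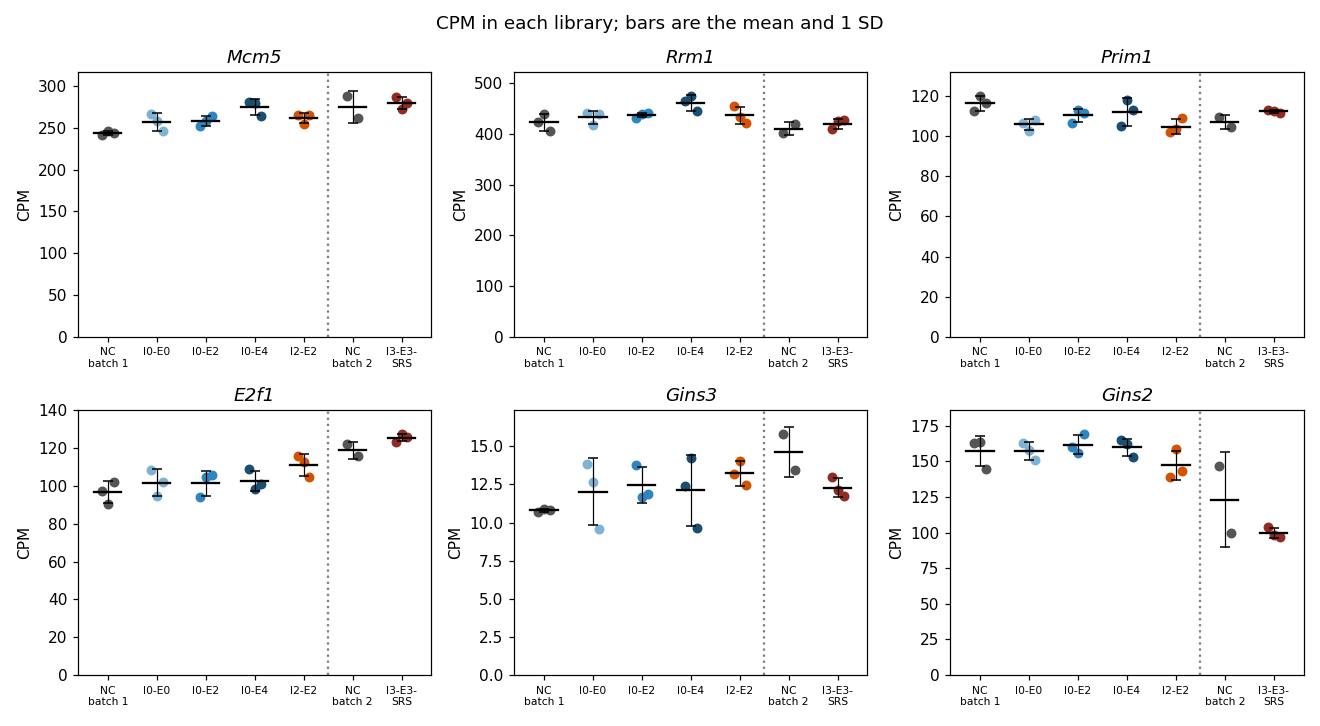
CPM of Mcm5, Rrm1, Prim1, E2f1, Gins3 and Gins2 in each library (points), with the mean and 1 SD of each group; the dotted line parts the batches, which were normalised separately. Gins2 in NC of batch 2 is split, at 146 and 99.5 CPM, and the Mcm5 libraries of I0-E4 (264 to 281) all lie above NC of batch 1 (242 to 246).

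The number of genes with small unadjusted p-values was set against the background of all genes. An unadjusted p under 0.05 was reached by 1 of 41 genes in I0-E0 (3.37% of all genes), 0 in I0-E2 (3.35%), 2 in I0-E4 (7.93%), 3 in I2-E2 (7.20%), 2 in the 12 exposed libraries against NC (5.90%), 2 in I2-E2 against I0-E2 (5.25%), 2 in the fluency trend (7.28%), 0 in I3-E3-SRS (4.03%) and 1 in the F test (4.24%). These shares are near the background.

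Genes whose exposed libraries all lay above or all below NC were also counted. In I0-E0 there was 1 above (Mcm6; 4.68% of all genes) and there were 2 below (Gins4 and Prim1; 4.36%). In I0-E2 there were 6 above (Mcm3, Mcm5, Gins1, Gins3, Rfc4 and Rrm2; 5.80%) and 0 below (5.39%). In I0-E4 there were 5 above (Mcm3, Mcm5, Mcm6, Rpa1 and Rrm1; 6.66%) and 0 below (6.05%). In I2-E2 there were 4 above (Mcm5, Gins3, Tyms and E2f1; 6.23%) and 2 below (Rfc1 and Prim1; 5.84%). In I3-E3-SRS there were 5 above (Mcm3, Cdc45, Prim1, Rrm2 and E2f1; 8.78%) and 3 below (Gins3, Rfc3 and Pola2; 9.83%). The counts above in I0-E2 and I0-E4 are larger than the background share of 41 genes, and those in I2-E2 and I3-E3-SRS exceed it by little. The counts below in these settings do not exceed it. The settings of batch 1 share their NC libraries, so their counts are not separate evidence, and no test was made of any of them.

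The settings I0-E2 and I2-E2 share a fluency of 48 J/cm2, which the former reached at a lower power and a longer dwelling time, and the latter was tested against the former. The median of the 41 genes was -0.0014, with 19 higher and 22 lower. Rfc5 and Gins2 were lowest, at -0.16 ± 0.07 (SE) and -0.14 ± 0.07 (SE), and neither passed the threshold (adjusted p = 0.94 and 0.95 in edgeR). A linear trend on fluency over NC and the settings at 20 mW gave a median of 0.065 over the range from 0 to 95 J/cm2, with 31 positive and 10 negative slopes, beside -0.0006 over all genes. Mcm5 (0.14 ± 0.05 SE, adjusted p = 0.66 in edgeR) and Rrm1 (0.11 ± 0.04 SE, adjusted p = 0.66 in edgeR) had the smallest unadjusted p, and the largest slopes, of Rfc4 (0.23 ± 0.12 SE) and Gins1 (0.22 ± 0.12 SE), had wider errors. In a fit of all 20 libraries, made after seeing the data, the effect of I3-E3-SRS in batch 2 was set against the mean effect of the 4 settings of batch 1, and 0 of the 41 genes and 1 of the 12830 genes tested passed the threshold (3 of the 41 at an unadjusted p under 0.05, beside 4.42% of all genes).

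Genes with and without E2F words in their windows were set side by side. The 13 with a match had a median log2 fold change of 0.03 to 0.09 over the 4 settings of batch 1 and the 19 genes with a window but no match 0.01 to 0.06, with no test made. In I0-E4 the medians were 0.09 and 0.06, and in I0-E2 the order was opposite, at 0.0455 and 0.0505. Across the 15 libraries of batch 1 the median coefficient of variation in CPM of the 41 genes was 6.17%, from 2.90% for Mcm10 to 12.8% for Gins3. The correlation of residuals from the group means over the 820 pairs had a median of 0.036 and ranged from -0.82 to 0.88. Its median with all other genes was -0.0028. The points share their libraries.

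Other genes of the pathway, from 4 lists of replication fork and licensing genes (32 of 32 tested), nucleotide supply and chromatin assembly (21 of 21), E2F, cyclin and inhibitor genes (26 of 29) and replication checkpoint genes (21 of 21), gave 0 genes past the threshold in either direction in any of the 8 comparisons. In I2-E2, where E2f1 and Ccne1 were highest, 4 of the 26 genes of the E2F list had an unadjusted p under 0.05 and all 4 were lower, beside 3.36% of all genes that were lower at that p. Among them were Skp2, a ubiquitin ligase subunit that clears a cyclin kinase inhibitor (-0.30 ± 0.10 SE, adjusted p = 0.60 in edgeR), Rbl2, a retinoblastoma family member (-0.30 ± 0.11 SE, adjusted p = 0.60 in edgeR), and Myc (-0.16 ± 0.06 SE, adjusted p = 0.63 in edgeR). In the other lists the smallest p in I2-E2 belonged to Dscc1, a subunit of an alternative clamp loader (0.34 ± 0.14 SE), Slbp, which binds histone mRNA (0.18 ± 0.07 SE), and Atrip, the partner of the checkpoint kinase ATR (-0.26 ± 0.10 SE). In I0-E4, 16 of the 21 checkpoint genes were below NC with a median of -0.04, and none had an unadjusted p under 0.05. The 5 markers of proliferating cells (Mki67, Top2a, Ccnb1, Cdk1 and Ccna2), most of which peak in G2 or mitosis, gave small differences. They were all below NC in I0-E0 and I0-E2, with medians of -0.04 and -0.02, and 3 of 5 were above it in I0-E4. In I2-E2 2 of 5 were above NC, with a median of -0.02, and in I3-E3-SRS 1 of 5, with a median of -0.04. Over all genes tested, 48.6% to 51.4% were higher in the 5 settings. None of the 5 markers passed the threshold.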

How the data were processed

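The values deposited by the authors are the estimated count and the TPM of every transcript, made with Salmon, which the submitters' processing notes list with no version. Its options, transcript release and build: not given in the sources used here. Gene names came from GENCODE vM21 (GRCm38), in which 98.7% of the 107368 transcripts were found, and the rest held 0.635% to 0.719% of the counts and were left out. Estimated counts were summed per gene and rounded, genes were filtered with filterByExpr (minimum count 10), TMM scaled the libraries, and the quasi-likelihood test of edgeR was fitted by group, separately in batch 1 (10 residual degrees of freedom, biological coefficient of variation 8.26%) and batch 2 (3 and 11.5%), with Benjamini-Hochberg adjustment over all genes and a threshold of 0.05. CPM values use the TMM library sizes. Library differences were taken on log2(CPM + 0.5). The test was checked on simulated data.

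The members and lists were chosen with earlier results of these data known. Genes named with full values are those past the threshold, the 2 highest and 2 lowest in each comparison with NC, and the highest and lowest by TPM of each role. Mcm5, Rrm1, Ccne1 and others named for small unadjusted p-values or for groups that do not overlap were added after their values were seen. Alternatives were DESeq2, limma-voom, limma-trend, RLE scaling, library totals, no filter, counts rebuilt from TPM, fits of the compared groups alone, batch as a term, the replicate number as a block, and each library left out. Promoter windows are RefSeq's (GRCm38.p6). Python 3.11.15 was used with matplotlib 3.10.9, scipy 1.17.1, pandas 2.3.3 and numpy 2.4.6, and R 4.3.3 with DESeq2 1.42.0, limma 3.58.1 and edgeR 4.0.16.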

Additional observations from a re-analysis of the deposited data

How the results depend on the processing

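The number of the 41 genes past the threshold stayed at 0 under every alternative run for the 8 comparisons and, in alternatives chosen after seeing the data, for the F test, except in I3-E3-SRS without replicate 2 of NC (range 0 to 1 over the left-out libraries), where 1 gene, Gins2, passed at -0.55 and 671 genes were called over all. That fit rests on the NC library that stood apart, and the lone NC library is assumed to vary like the others. For Gins2 in I3-E3-SRS the left-out libraries gave -0.55 to 0.0022. With each library left out in turn, the median of the list in I2-E2 ranged from -0.0003 (without replicate 1 of I2-E2) to 0.032, and in I2-E2 against I0-E2 from -0.025 (without replicate 1 of I0-E2) to 0.0027. For Ccne2 in I0-E0 the left-out libraries gave -0.17 to 0.0004, the latter without replicate 1 of I0-E0, and all alternatives -0.19 to 0.0004. Over all alternatives the median of the list was 0.0106 to 0.029 in I0-E0, 0.029 to 0.051 in I0-E2 and 0.035 to 0.064 in I0-E4. With counts rebuilt from summed TPM, Gins3 and Gmnn in I3-E3-SRS changed direction, to 0.082 and -0.25. The cause of these changes was not tested. The median TPM of the list was 86.7 over all 20 libraries and, as an alternative chosen after seeing the data, 88.2 without replicate 1 of NC in batch 2, and the median share of the main transcript was 89.7% of counts and 79.5% of TPM. Without a filter on low counts 46 to 357 genes were called over all, and none of the 41. DESeq2 called 15 genes in I3-E3-SRS and at most 4 elsewhere, the fit of all 20 libraries with batch as a term called 16 in I3-E3-SRS, and none of these was among the 41. Libraries with the same replicate number showed no strong shared deviation: of 30 same-number pairs in batch 1, 3 had correlated deviations over 0.1 (-0.21 to 0.19, median -0.0097), and 6 of 15 libraries correlated best with their own number. With so few libraries per group this cannot show whether the samples were paired. With the replicate number as a block 0 of the 41 passed in any comparison (0 genes over all in batch 1 and 7 in batch 2). Batch 2, with 2 NC libraries and 3 residual degrees of freedom, limits what could be detected there.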
